A study of Mus musculus with 57 samples.

Results

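Lithium and fluoxetine were compared with each other directly in the prefrontal cortex of wild-type (WT) C57BL/6J mice. The contrast set 9 libraries from lithium-treated mice (4 females and 5 males) against 10 from fluoxetine-treated mice (5 females and 5 males), 19 of the 56 libraries of the series that could be matched to a label. The members were the libraries labelled WT and lithium or WT and fluoxetine, and the female and male group means were weighted equally. A further 10 WT libraries from vehicle-treated mice (5 females and 5 males) gave each drug's own change. The same drug pair in mice heterozygous (HT) for the Shank3dC allele, with 9 lithium and 10 fluoxetine libraries, gave the contrast in animals that share no library with the WT ones. Drugs reached the pups through their mothers' milk for 3 weeks, from postnatal day 3 to 24, and the cortex was taken on postnatal day 25. The labels name no litter and no dose, so pups of 1 dam may stand behind several libraries, and the p-values measure only the spread between these libraries. The WT mice carry no engineered allele by their labels. A further sample labelled as a WT lithium female was not analysed here.

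Lithium is a mood stabiliser. It inhibits the kinase GSK3, which marks beta-catenin and other proteins for destruction, and inositol monophosphatase, an enzyme that recycles inositol for phosphoinositide signalling. Fluoxetine, an antidepressant, blocks the serotonin transporter of serotonin axons, whose cell bodies lie in the brainstem and not in the cortex. A change that both drugs make against vehicle cancels in the direct contrast, which therefore asks what 1 drug did and the other did not do to the same extent.

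Reads over the listed genes numbered from 23386799 to 35246799 in the 19 libraries. Markers of the olfactory bulb, which lies next to the dissected region, varied between libraries. The olfactory level averages 5 bulb genes, each scaled to its own mean across the 56 libraries. It was 1.07 ± 1.18 (SD, n = 4) in lithium females and 1.15 ± 0.864 (SD, n = 5) in lithium males, against 2.28 ± 2.09 (SD, n = 5) in fluoxetine females and 0.584 ± 0.677 (SD, n = 5) in fluoxetine males. The highest of the 19 libraries were fluoxetine females 4 and 1, at 4.41 and 4.06, followed by 1 lithium female at 2.77 and fluoxetine female 2 at 2.74. Summed over the 13 bulb markers tested, of 14 listed, the normalised count was 1829 to 15675 in lithium libraries and 1471 to 25892 in fluoxetine libraries, with no marker at 0 in every library. The slope of log2 values with transcript GC content, per 10 percentage points, was -0.0112 ± 0.0584 (SD, n = 4) in lithium females, lower than the 0.0942 ± 0.0637 (SD, n = 5) of fluoxetine females. In males the order was the reverse, at -0.0153 ± 0.0764 (SD, n = 5) in lithium males and -0.0450 ± 0.112 (SD, n = 5) in fluoxetine males, less far apart than the spread within either group. The excitatory neuron markers of the cortex were present in all libraries, with a summed normalised count of 134731 to 179188 under lithium and 97052 to 204445 under fluoxetine. In bulk tissue, fewer cells of a type and less RNA per cell cannot be told apart.

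Of 18026 genes tested, 42 (0.233%) differed between lithium and fluoxetine in WT mice, 30 of them higher under lithium (0.166%) and 12 lower (0.0666%). The test was limma's moderated test on log2(normalised count + 1) (limma-trend), and a gene counted as differing when its p, adjusted by Benjamini and Hochberg's method over all genes, was below 0.05. Sizes were modest: log2 fold changes of the higher genes ran from 0.14 to 1.14 with a median of 0.34, and those of the lower genes had a median of -0.25. All 42 had the same direction in females and in males. The 9 lithium and 10 fluoxetine libraries did not overlap for 2 of the 42, Zfp438 and Gm7276, which were the 2 such genes among all tested (0.0111%). An unadjusted p below 0.05 was met by 1852 genes (10.3%), a count that includes genes expected at that threshold with no difference.

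The count of 42 depended on the spread estimated from all 12 groups of the series. With the 4 compared groups alone in the fit 1 gene was called, Zbtb16. With the olfactory level as a covariate 574 genes (3.18%) were called, all 42 among them. Without the 14 most olfactory libraries of the series 121 were called, 23 of the 42 among them. Those 14 held 3 of the 5 fluoxetine females and 1 of the 4 lithium females, so few females remained in that fit. They also held 1 of the 5 fluoxetine males and 2 of the 5 lithium males. A correction for GC content and length gave 30 higher and 44 lower genes, in place of 30 and 12, and kept 35 of the 42. edgeR's quasi-likelihood test on the recovered reads called 32 genes, 31 of them among the 42. Leaving out single libraries left 8 to 87 calls. The count fell to 8, 26 and 12 without lithium female 2, 3 or 4, to 16 without lithium male 4 or lithium male 5, and to 23 and 27 without fluoxetine female 1 or 4. It was 27, 25 and 26 without fluoxetine male 2, 4 or 5, and 64 and 87 without fluoxetine female 3 or 5. Called in each of the 19 fits that leave out 1 of these libraries were 7 genes: Zbtb16, Mertk, Etv6, Nhsl2, Sesn3 and Ssh2, higher under lithium, and Tmem91, lower under lithium.

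Set against vehicle, lithium changed 2109 genes (11.7%), 7.05% higher and 4.65% lower, and fluoxetine 933 (5.18%), 3.19% higher and 1.99% lower, at similar median standard errors (0.0887 and 0.0861 on the log2 scale). Both contrasts use the same vehicle libraries. The gap between the counts depended on the fit: with the olfactory covariate they were 3365 for lithium and 3052 for fluoxetine. With the compared groups only they were 2356 for lithium and 421 for fluoxetine, and without fluoxetine female 2 the fluoxetine count was 462. The gap is not a count of drug-specific genes. Without the covariate and with all groups in the fit, of 1470 genes called for lithium and not for fluoxetine, 27 differed between the drugs directly. Of 294 called for fluoxetine and not for lithium, 5 did, and of 639 called for both drugs, 3 did. For the other genes called against vehicle under 1 drug alone, a difference between the drugs was not shown. The last 7 of the 42 were called against vehicle under neither drug, their 2 estimates lying on opposite sides of 0.

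**Figure D1:**
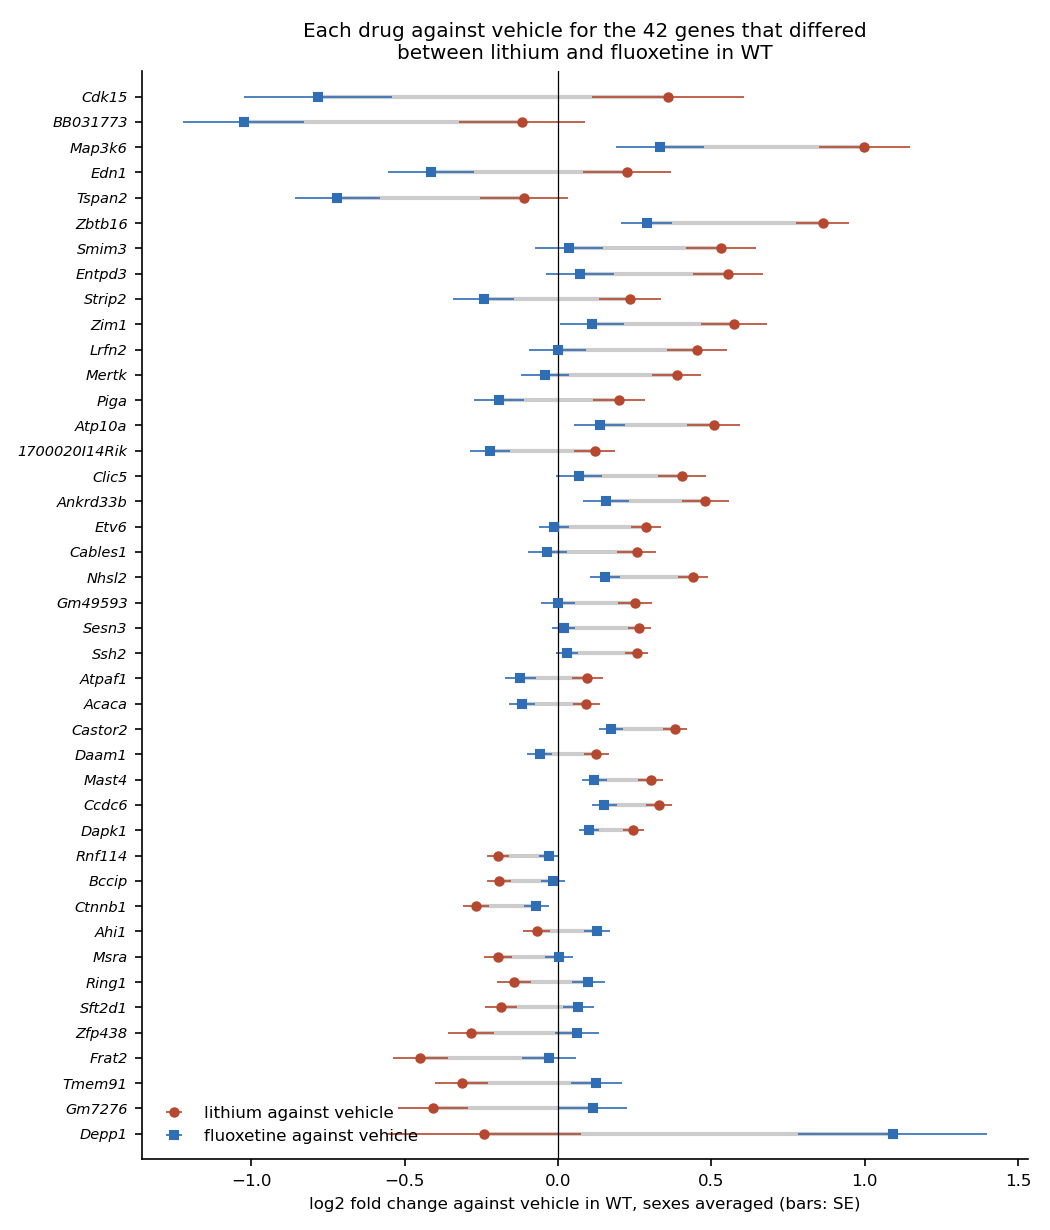
Log2 fold change against vehicle in WT mice, sexes averaged, under lithium (red circles) and fluoxetine (blue squares) for the 42 genes that differed between the drugs, one gene per line and ordered by the direct contrast; bars are SE. Lithium lies away from 0 and fluoxetine near 0 for most genes, while Tspan2 and Depp1 show the reverse; Zbtb16, Castor2 and Ccdc6 moved the same way under both drugs, more under lithium.

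Among the genes higher under lithium, 18 were called against vehicle under lithium and not under fluoxetine. Another 3 were called under both drugs in 1 direction, more strongly under lithium, 4 under fluoxetine alone, where they fell, and 5 under neither. Over all genes, 7.05% were called higher against vehicle under lithium and 1.99% lower under fluoxetine. The genes were chosen on the difference between the same drug libraries. A departure from vehicle under 1 drug is thus partly fixed by that choice. The called genes are ordered by what each is known to do, an order chosen after the calls and not tested. The gene with the smallest p was Zbtb16 (ENSMUSG00000066687, chromosome 9, 48654297 to 48836222, GRCm38), which encodes the zinc finger transcription factor PLZF and responds to glucocorticoids. Its normalised counts were 1018, 1385, 1426 and 1476 in lithium females and 1389, 1483, 1592, 1691 and 1694 in lithium males. They were 759.7, 809.9, 904, 916 and 1103 in fluoxetine females and 916, 954, 1015, 1085 and 1260.2 in fluoxetine males, against 595 to 1079 (median 774) in vehicle libraries. Males did not overlap between the drugs, and among females the lowest lithium library lay below the highest fluoxetine one. The log2 fold change of lithium over fluoxetine was 0.57 ± 0.09, adjusted p = 0.000303. It was 0.86 ± 0.09 for lithium over vehicle and 0.29 ± 0.08 for fluoxetine over vehicle (adjusted p = 0.0319), so Zbtb16 rose under both drugs and more under lithium.

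Etv6, an ETS-family repressor, had normalised counts of 733 to 900.1 (median 789) under lithium and 611 to 743 (median 639) under fluoxetine, against 571 to 736 (median 666) under vehicle. Only the extremes of the drug groups met, and the difference was 0.30 ± 0.05, adjusted p = 0.000762; against vehicle Etv6 rose by 0.29 under lithium and had -0.01 ± 0.05 under fluoxetine. Zim1, an imprinted zinc finger gene, had 107 to 163 (median 144) under lithium and 87.0 to 127 (median 100.1) under fluoxetine, a difference of 0.46 ± 0.11, adjusted p = 0.0438, called in 5 of the 19 fits without 1 library.

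Sesn3 (ENSMUSG00000032009, chromosome 9, 14275067 to 14333101), a sestrin that restrains the growth kinase complex mTORC1, had normalised counts of 5909, 6383, 6789 and 6856 in lithium females and 5893, 6239, 6294, 6759 and 7402 in lithium males. Fluoxetine females had 5003, 5019, 5100.5, 5146 and 5676 and fluoxetine males 5451, 5711, 5814, 5912 and 5922. Females did not overlap between the drugs, and in males the lowest lithium library lay below the 2 highest fluoxetine ones. The difference was 0.25 ± 0.04, adjusted p = 0.000303. Against vehicle Sesn3 rose by 0.27 ± 0.04 under lithium and had 0.02 ± 0.04 under fluoxetine. Castor2, of the family of arginine sensors upstream of mTORC1, had 5245 to 6232 (median 5795) under lithium, 4486 to 5392 (median 5035) under fluoxetine and 4215 to 4799 (median 4440.1) under vehicle. It rose under both drugs, by 0.38 ± 0.04 under lithium and 0.17 ± 0.04 under fluoxetine, and the direct difference was 0.21 ± 0.04, adjusted p = 0.0101. Acaca, the acetyl-CoA carboxylase that makes malonyl-CoA for fatty acid synthesis, had 2921 to 3373 (median 3134) under lithium and 2458 to 3017 (median 2768) under fluoxetine. Vehicle libraries lay across both ranges, at 2637 to 3294 (median 3000.0), so the direct difference of 0.21 ± 0.04, adjusted p = 0.028 had no call against vehicle on either side.

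Mertk (ENSMUSG00000014361, chromosome 2, 128698956 to 128802894), a receptor kinase that lets glia engulf cell debris and synapses, had 1238, 1536, 1548 and 1565 normalised counts in lithium females and 1361, 1377, 1454, 1594 and 1753 in lithium males. In fluoxetine females it had 642, 769, 993, 1185 and 1294, and in fluoxetine males 1225, 1244, 1245, 1265 and 1440.1. The 3 lowest values, 642, 993 and 769, belonged to fluoxetine females 1, 2 and 4, which had 3 of the 4 highest olfactory levels. The direct difference was 0.43 ± 0.08, adjusted p = 0.00795, and 0.46 with the olfactory covariate (adjusted p = 4.78e-05) and 0.30 without the 14 most olfactory libraries (adjusted p = 0.0324). Lrfn2, the synaptic adhesion protein SALM1, had 631 to 969.9 (median 722) under lithium and 432 to 751 (median 591) under fluoxetine, a difference of 0.45 ± 0.10, adjusted p = 0.028. It rose by 0.45 under lithium against vehicle and stood at -0.00 under fluoxetine. Entpd3, an ectonucleotidase that breaks down extracellular ATP, had 156 to 269.5 (median 191) under lithium and 91.7 to 185 (median 151) under fluoxetine. Atp10a, a lipid flippase, had 433 to 571 (median 468) under lithium and 286 to 489.7 (median 368) under fluoxetine. The calls of these 3 genes were less stable than that of Mertk, holding in 14, 5 and 4 of the 19 fits without 1 library. Smim3, a small integral membrane protein, differed by 0.50 ± 0.11, adjusted p = 0.0425. Piga, needed for the first step of GPI anchor synthesis, differed by 0.39 ± 0.09, adjusted p = 0.0287, with 0.20 under lithium and -0.19 under fluoxetine against vehicle, neither called.

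Map3k6, a stress-activated protein kinase kinase kinase, had 90.1 to 193 (median 149) normalised counts under lithium, 55.1 to 132 (median 85.0) under fluoxetine and 41.5 to 116 (median 69.2) under vehicle, a direct difference of 0.67 ± 0.15, adjusted p = 0.0312. Ssh2, a phosphatase that activates cofilin and so actin turnover, had 1782 to 2108 (median 1962) under lithium and 1518 to 1839.9 (median 1644) under fluoxetine, a difference of 0.23 ± 0.04, adjusted p = 0.000762. Nhsl2, of the Nance-Horan family of actin regulators, had 1844 to 2581 (median 2297) under lithium and 1497 to 2022 (median 1950.3) under fluoxetine, a difference of 0.29 ± 0.05, adjusted p = 0.00219. Strip2, of the STRIPAK phosphatase complex, had 1182 to 2338 (median 1472) under lithium and 892 to 1291 (median 1089) under fluoxetine (difference 0.48 ± 0.10, adjusted p = 0.028); its highest value, in lithium male 4, lay apart from the rest, and the call was lost without that library and without lithium female 2 or 4. Edn1, the secreted vasoconstrictor endothelin 1, had 78.7 to 137 (median 100.4) under lithium and 51.1 to 86.3 (median 67.9) under fluoxetine, a difference of 0.64 ± 0.14, adjusted p = 0.0333. The vehicle median lay between those of the drugs, at 70.5 to 127 (median 75.8). The remaining higher genes were Dapk1, Daam1, Mast4, Ccdc6, Cables1, Clic5, Ankrd33b, Atpaf1 and the predicted gene Gm49593. Their log2 fold changes ran from 0.14 for Dapk1 to 0.33 for Clic5. These, apart from Clic5, and Castor2, Acaca and Nhsl2 lie outside the rule for named genes and are given so that every called gene is accounted for.

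**Figure D2:**
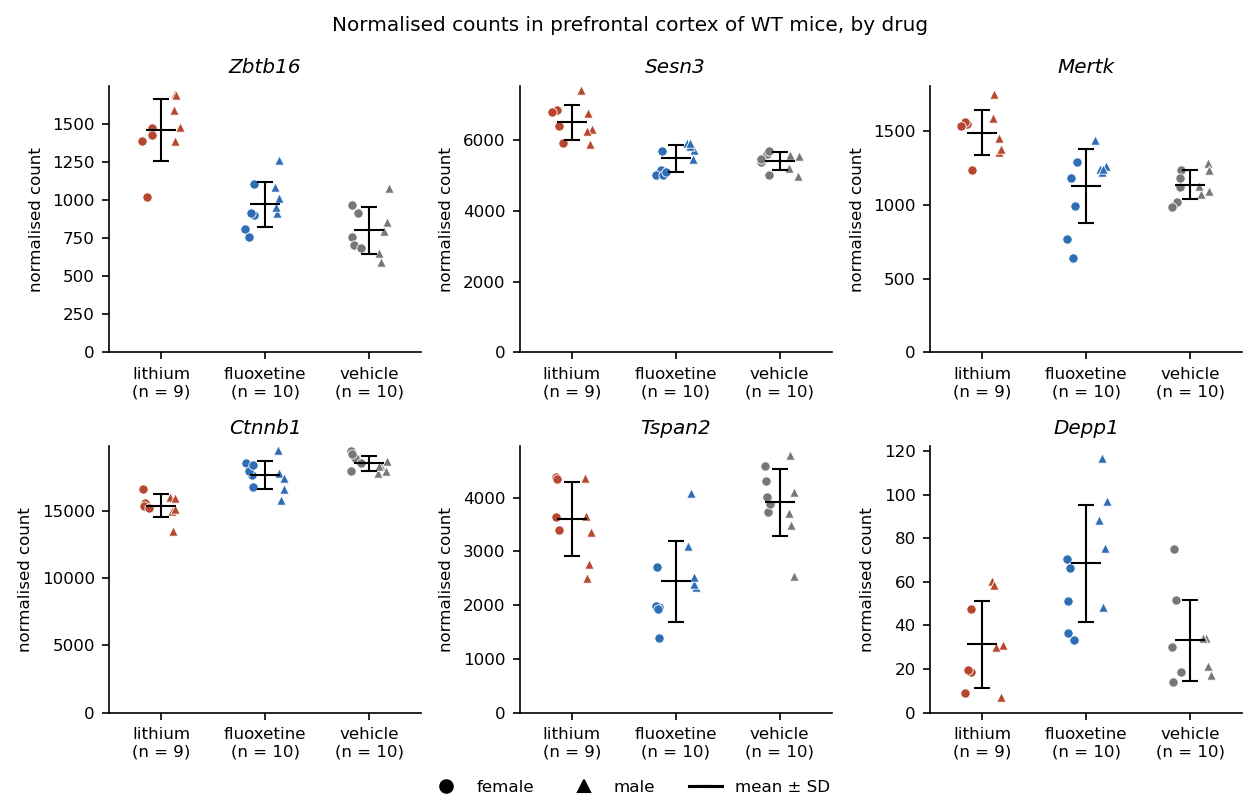
Normalised counts of 6 genes in each WT library under lithium (left), fluoxetine (middle) and vehicle (right); circles are females, triangles males, and black marks the mean and SD over all libraries of a drug. Zbtb16, Sesn3 and Mertk were highest under lithium, Ctnnb1 lowest under lithium, and Tspan2 and Depp1 departed from vehicle under fluoxetine.

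Lower calls against vehicle under lithium made up 4.65% of all genes. Of the 12 genes lower under lithium, 9 were called against vehicle under lithium alone, 1 (Depp1) under fluoxetine alone and 2 (Ring1 and Ahi1) under neither. Of these, Ctnnb1 and Frat2 belong to Wnt signalling. Ctnnb1 (ENSMUSG00000006932, chromosome 9, 120929216 to 120960507) encodes beta-catenin, the protein that GSK3 marks for destruction. Ctnnb1 was measured here as RNA, which does not give the level of the protein. It had normalised counts of 15252, 15355, 15572 and 16662 in lithium females and 13518, 15028, 15149.7, 15989 and 16022 in lithium males. It had 16786, 17674, 17960.2, 18407 and 18533 in fluoxetine females and 15849, 16668, 17488, 17860.2 and 19513 in fluoxetine males, against 17804 to 19497 (median 18448) under vehicle. Females did not overlap between the drugs, and in males the lowest fluoxetine library lay within the lithium range. The difference was -0.20 ± 0.04, adjusted p = 0.0281, with -0.27 ± 0.04 for lithium and -0.07 ± 0.04 (adjusted p = 0.347) for fluoxetine over vehicle. Frat2, which binds and inhibits GSK3, had 100.2 to 188 (median 146) under lithium and 143 to 267 (median 174) under fluoxetine. In males the fluoxetine range lay inside the lithium one, and the difference was -0.42 ± 0.09, adjusted p = 0.0281. With the sexes averaged, Frat2 fell by 0.45 on the log2 scale under lithium against vehicle and had -0.03 ± 0.09 under fluoxetine. Its mean under fluoxetine lay above vehicle in females (206 against 187) and below vehicle in males (156 against 178).

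Tmem91, a transmembrane protein gene, had 172 to 296 (median 268) normalised counts under lithium and 257 to 406 (median 365) under fluoxetine, with 277 to 358 (median 318) under vehicle. Among females the drugs did not overlap, and among males 1 fluoxetine library lay within the lithium range. Its difference of -0.44 ± 0.09, adjusted p = 0.0112 was nearly the same in females (-0.44) and males (-0.44). Zfp438, a zinc finger gene, had 77.5 to 98.8 (median 93.6) under lithium and 101.4 to 142 (median 112) under fluoxetine, without overlap, and differed by -0.35 ± 0.07, adjusted p = 0.028. Gm7276, a predicted noncoding gene named here because it shares that separation, had 51.5 to 68.4 (median 62.0) under lithium and 70.9 to 128 (median 78.9) under fluoxetine. Ring1, a ubiquitin ligase of Polycomb complexes, had 595 to 826 (median 642) under lithium and 653 to 982 (median 782) under fluoxetine, a difference of -0.24 ± 0.06, adjusted p = 0.0438. Ahi1, the ciliary protein jouberin, had 4072 to 4704 (median 4425) under lithium and 4258 to 5688 (median 5095) under fluoxetine, a difference of -0.20 ± 0.04, adjusted p = 0.0312. Msra, which repairs oxidised methionine, differed by -0.20, Sft2d1, a vesicle transport gene, by -0.25, Bccip, a partner of BRCA2 and p21, by -0.18, and Rnf114, a ubiquitin ligase, by -0.17. All 4 fell under lithium against vehicle and lay within 0.07 of vehicle on the log2 scale under fluoxetine.

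Only 5 of the 42 genes were called against vehicle under fluoxetine and not under lithium. Tspan2 (ENSMUSG00000027858, chromosome 3, 102734529 to 102801513), a tetraspanin of oligodendrocytes, had 3399.6, 3645, 4350.4 and 4396 normalised counts in lithium females and 2514, 2765, 3362, 3652 and 4374 in lithium males. It had 1386, 1936, 1961, 1984 and 2709.8 in fluoxetine females and 2339, 2397, 2531, 3105 and 4082 in fluoxetine males, against 2551 to 4788 (median 3943) under vehicle. Females did not overlap between the drugs and males did. The direct difference was 0.61 ± 0.14, adjusted p = 0.0454, with -0.11 ± 0.14 for lithium and -0.72 ± 0.14 (adjusted p = 0.00145) for fluoxetine over vehicle. The call held in 6 of the 19 fits without 1 library. Depp1, a FOXO target linked to autophagy, was the 1 gene on this side to stand higher under fluoxetine. It had 9.15, 18.6, 19.7 and 47.7 in lithium females and 7.02, 30.2, 31.1, 58.4 and 60.2 in lithium males, against 33.5, 36.5, 51.1, 66.5 and 70.7 in fluoxetine females and 48.7, 75.8, 88.4, 97.1 and 117 in fluoxetine males. Vehicle libraries had 13.9 to 75.2 (median 32.2). All of these are low counts with overlapping ranges, and the difference of -1.33 ± 0.32, adjusted p = 0.0489 held in 5 of the 19 fits. The other 3, outside the rule for named genes, were the weakly expressed kinase gene Cdk15 (4.82 to 22.3 (median 12.2) under lithium, 2.02 to 10.8 (median 4.78) under fluoxetine), the antisense transcript BB031773 and the noncoding 1700020I14Rik. With the sexes averaged, each of the 3 fell under fluoxetine against vehicle. For 1700020I14Rik the mean was lower in females, at 14565 under fluoxetine and 20726 under vehicle. In males it was not, at 18607 under fluoxetine and 17563 under vehicle.

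Tspan2 was the 1 called member of the 15 markers of myelinating oligodendrocytes. All 15 had a log2 fold change above 0, against 52.6% of all genes, with a median of 0.44 against 0.01 over all genes tested. The median was 0.76 in females and 0.13 in males, and -0.29 in HT mice. The 15 markers summed to 104717 to 189736 normalised counts in lithium libraries, 59736 to 192741 in fluoxetine libraries and 95957 to 278032 in vehicle libraries. Against vehicle 0 members were called lower under lithium (4.65% of all genes) and 8 under fluoxetine (1.99% of all genes), and none higher. The list's median against vehicle lay below 0 under both drugs. It was -0.179 under lithium, with 3 of 15 above 0, and -0.653 under fluoxetine, with 0 of 15 above 0. Myelin basic protein, Mbp, had 57162 ± 10676 (SD, n = 9) under lithium and 47095 ± 15926 (SD, n = 10) under fluoxetine, with 72734 ± 19844 (SD, n = 10) under vehicle. Its direct difference of 0.35 ± 0.21, adjusted p = 0.602 did not pass the test. Striatal projection neuron markers, which would come from tissue beneath the cortex, also had a positive median (0.37, 0 of 13 called), as had red cell genes (0.53, 0 of 7 called). The part of tissue makeup in the myelin values was not tested.

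Taken by sex, 26 genes (0.144%) were called in females, 18 higher (0.0999%) and 8 lower (0.0444%), and 0 in males by limma. In males 1430 genes (7.93%) had an unadjusted p below 0.05, the smallest adjusted p was 0.062 and edgeR called 0. The female count rested on single libraries: it was 3, 12 and 11 without fluoxetine female 1, 2 or 4, 456 and 881 without fluoxetine female 3 or 5, 305 without lithium female 1, and 5, 8 and 5 without lithium female 2, 3 or 4. With the GC and length correction 6 genes were higher and 18 lower in females, in place of 18 and 8. No gene was called for the difference between the sexes, although 2429 (13.5%) had an unadjusted p below 0.05; edgeR called 0. Without fluoxetine female 3 or 5, 9 and 253 genes were called for that difference. The difference was larger in females for 22 of the 30 higher and 7 of the 12 lower ones. Median log2 fold changes of the higher genes were 0.44 in females and 0.26 in males, and of the lower genes -0.31 in females and -0.20 in males. Since these genes were chosen on the mean of the 2 sexes, their common direction is a description.

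Of the 5 genes named for females, Clic5, a chloride channel family protein, and Mex3d had the widest gap to males. The Clic5 log2 fold change was 0.63 ± 0.11 in females and 0.04 ± 0.11 in males. The difference of males minus females, -0.59 ± 0.16, had an adjusted p = 0.203. Mex3d, an RNA-binding ubiquitin ligase called in females and not with the sexes averaged, had 315, 354, 383 and 421 normalised counts in lithium females and 523, 562, 566, 567 and 627 in fluoxetine females. Males had 357, 399, 468, 486 and 525.98 under lithium and 349.8, 426, 433, 464 and 496 under fluoxetine. The female difference was -0.63 ± 0.12, adjusted p = 0.0066, the male one 0.04 ± 0.11, and the difference between the sexes had an adjusted p = 0.203. Ssh2, Sesn3 and Etv6 were called in females at 0.29 ± 0.05, 0.32 ± 0.06 and 0.40 ± 0.07. In males they had 0.16 ± 0.05, 0.17 ± 0.05 and 0.20 ± 0.07.

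**Figure D3:**
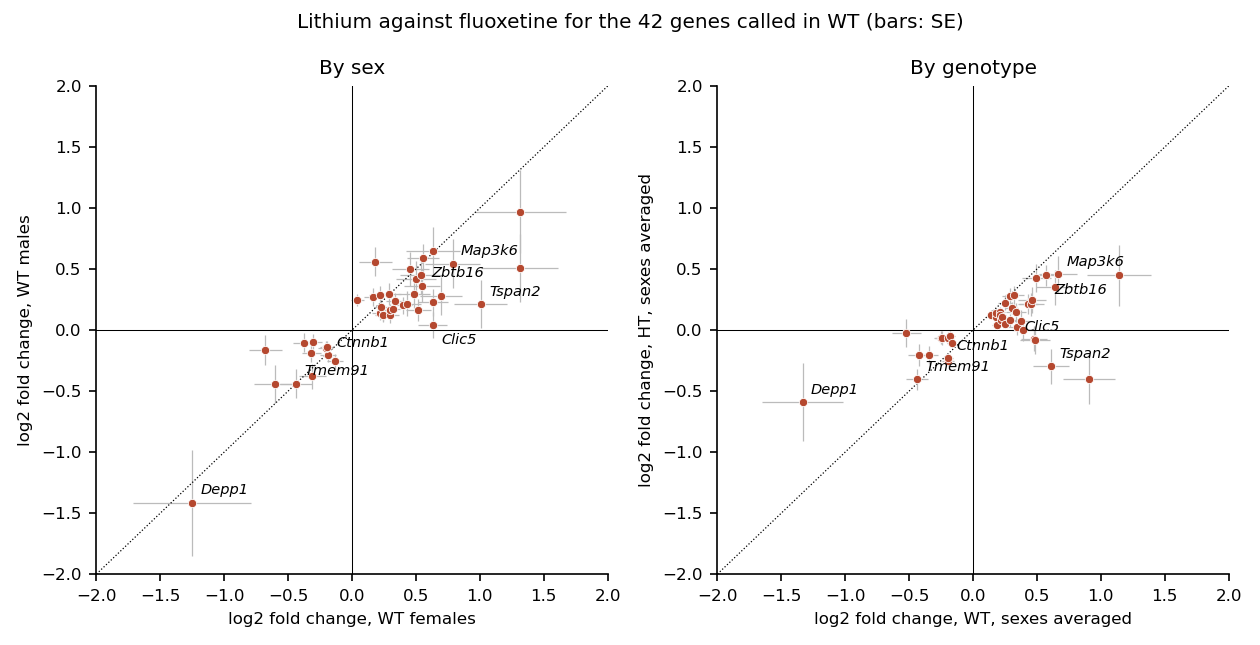
Log2 fold change of lithium over fluoxetine for the 42 genes called in WT mice, in WT females against WT males (left) and in WT against HT mice with the sexes averaged (right); bars are SE and the dotted line marks equal values. All 42 lie in the quadrants of equal sign by sex, most with the larger value in females; in HT mice 37 keep their sign, and Tspan2 is among the 5 that do not.

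The HT libraries gave the same contrast in other animals. There 100 genes (0.555%) were called, 55 higher (0.305%) and 45 lower (0.25%). Of the 42 WT genes, 37 had the same sign in HT mice: 25 of the 30 higher genes, where 50.6% of all genes lay above 0, and 12 of the 12 lower genes, where 49.4% lay below 0. An unadjusted p below 0.05 in the same direction was met by 17 of the 30 (6.78% of all genes) and by 6 of the 12 (6.39% of all genes). Medians were smaller in HT than in WT mice, at 0.13 in HT and 0.34 in WT for the higher genes and -0.15 in HT and -0.25 in WT for the lower ones. The 42 genes were picked by adjusted p in WT mice, which favours larger sizes there, and their sizes in HT mice played no part in the choice. The spread of each gene came from all 12 groups, HT ones included, and a small spread lowers p in both genotypes. The shares of the 42 that reached a p threshold in HT mice are therefore not independent of the choice. Across all genes the WT and HT log2 fold changes were nearly unrelated (Pearson r 0.0712, Spearman rho 0.0843, over 18026 genes, which are not independent). The HT count moved with the libraries used: it was 46, 59, 43 and 208 without HT fluoxetine female 1, 2, 3 or 5, 44 and 60 without HT fluoxetine male 1 or 5, and 63, 36 and 38 without HT lithium male 1, 2 or 3.

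Of the 42, 6 were called in HT mice in the same direction: Zbtb16, Cables1 and Gm49593 higher, and Tmem91, Ahi1 and Ctnnb1 lower. Zbtb16 had 1178, 1255, 1318, 1326 and 1631 in HT lithium females and 1272, 1354, 1395 and 1412 in HT lithium males. HT fluoxetine females had 839, 877, 1024, 1028 and 1178 and HT fluoxetine males 907, 949, 961, 1039.5 and 1089. The HT difference was 0.45 ± 0.09, adjusted p = 0.00549, and HT males did not overlap, while the lowest lithium female and the highest fluoxetine female both had 1178. Ctnnb1 had 14274, 14427, 14915, 15346 and 18185 in HT lithium females and 15983, 16164, 16685 and 16839 in HT lithium males, against 17767, 17846, 19232, 19409 and 19816 in HT fluoxetine females and 17510.5, 17890.1, 18682, 18949.5 and 19586 in HT fluoxetine males. Its HT difference was -0.23 ± 0.04, adjusted p = 0.00363, with 1 lithium female inside the fluoxetine range. Ahi1 differed by -0.25 ± 0.04, adjusted p = 0.00234, Tmem91 by -0.40 ± 0.09, adjusted p = 0.0164 and Cables1, a regulator of cyclin-dependent kinases, by 0.28 ± 0.06, adjusted p = 0.0294. Tspan2 went the other way in HT mice, at -0.30 ± 0.14, adjusted p = 0.353. The difference between genotypes was called for 0 genes, with 1591 (8.83%) at an unadjusted p below 0.05, the smallest adjusted p at 0.15 and 0 calls by edgeR. It was called for 8 and 2 genes without HT lithium female 1 or 5, for 1 without WT lithium female 3 and for 9 without WT lithium male 1. With the olfactory covariate 96 genes were called for it, and 519 without the 14 most olfactory libraries. The libraries left out included 3 of the 5 HT lithium females and 3 of the 5 WT fluoxetine females.

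Pathways and markers of cell types or regions were read from 26 gene lists, by counts and medians beside the 0.233% of all genes called and the median of 0.01. Of the 20 glucocorticoid-responsive genes, Zbtb16 alone was called directly. Against vehicle 9 of the 20 were called higher under lithium (7.05% of all genes) and 1 under fluoxetine (3.19% of all genes). The list's median against vehicle was nearly equal under the drugs, 0.176 under lithium and 0.177 under fluoxetine, where the medians over all genes were -0.00291 and -0.0073, and 16 of the 20 lay above 0 under each drug. Its direct median was 0.08. Fkbp5, which binds the glucocorticoid receptor with its chaperone, had a direct difference of 0.47 ± 0.13, adjusted p = 0.1, with 0.78 ± 0.13 for lithium and 0.30 ± 0.13 for fluoxetine over vehicle. Fkbp5, Tsc22d3, Hif3a and Plin4 were also called higher under lithium with the olfactory covariate, which made 5 of 20 where 2.04% of all genes were called higher. These 4 and Hspa5 lie outside the rule for named genes.

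The inositol and GSK3 genes had 1 of 19 called, Ctnnb1. Among lithium's own targets, Gsk3a had 5992 ± 563 (SD, n = 9) under lithium and 6097 ± 816 (SD, n = 10) under fluoxetine, a log2 difference of -0.01 with a 95% interval of -0.14 to 0.11. Gsk3b had 6593 ± 519 (SD, n = 9) under lithium and 6191 ± 782 (SD, n = 10) under fluoxetine, with an interval of -0.01 to 0.21. For the phosphatases Impa1 and Inpp1, which free inositol from its phosphates, the differences were 0.15 ± 0.05, adjusted p = 0.131 and 0.04 ± 0.05, adjusted p = 0.852. The inositol importer gene Slc5a3 had 836 ± 96.7 (SD, n = 9) under lithium and 784 ± 123 (SD, n = 10) under fluoxetine, with 604 ± 96.3 (SD, n = 10) under vehicle. It rose under both drugs, by 0.49 ± 0.09 under lithium and 0.38 ± 0.09 under fluoxetine (adjusted p = 0.00527). The direct difference of 0.11 ± 0.09, adjusted p = 0.749 did not pass the test (95% interval -0.06 to 0.29). Shank3 had 7726 ± 642 (SD, n = 9) under lithium and 7609 ± 1592 (SD, n = 10) under fluoxetine, a difference of 0.05 ± 0.09, adjusted p = 0.917.

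For fluoxetine's side, 0 of 17 serotonin system genes were called directly. With the olfactory covariate 1 of the 17 was called higher (2.04% of all genes) and 2 lower (1.15% of all genes). The serotonin transporter gene Slc6a4 was not analysed here. The receptor gene Htr5a had 791 ± 102 (SD, n = 9) under lithium and 657 ± 128 (SD, n = 10) under fluoxetine, a difference of 0.28 ± 0.08, adjusted p = 0.121. S100a10, the annexin partner p11 that binds serotonin receptors, had 416 ± 54.2 (SD, n = 9) under lithium and 484 ± 53.2 (SD, n = 10) under fluoxetine, a difference of -0.21 ± 0.07, adjusted p = 0.211. Of the 24 activity-induced genes 0 were called, and 6 of the 24 lay above 0, with a median of -0.18. Nptx2, a secreted pentraxin that gathers AMPA receptors, had 1425 ± 118 (SD, n = 9) under lithium, 1820.0 ± 267 (SD, n = 10) under fluoxetine and 1242 ± 248 (SD, n = 10) under vehicle. It rose by 0.57 ± 0.10 under fluoxetine and had 0.23 ± 0.10 under lithium against vehicle, and the direct difference was -0.34 ± 0.10, adjusted p = 0.122. Egr3, an immediate early transcription factor, had 3920.5 ± 607 (SD, n = 9) under lithium, 5151 ± 1210.2 (SD, n = 10) under fluoxetine and 3173 ± 325 (SD, n = 10) under vehicle, a direct difference of -0.36 ± 0.11, adjusted p = 0.186. Neither direct difference passed the test. The list's median was 0.22 in HT mice, of the opposite sign.

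The endoplasmic reticulum stress list had 23 genes, of which 12 were called higher under lithium (7.05% of all genes) and 6 under fluoxetine (3.19% of all genes) against vehicle, and 0 directly, with a direct median of 0.06. Hspa5, the chaperone BiP, rose by 0.41 ± 0.08 under lithium and 0.34 ± 0.08 under fluoxetine, and the direct difference was 0.07 ± 0.08, adjusted p = 0.865. Dnajc3, a co-chaperone of BiP, had the smallest p of the list, at 0.20 ± 0.06, adjusted p = 0.135. Of 24 cholesterol synthesis genes, 5 were called lower under lithium (4.65% of all genes) and 13 lower under fluoxetine (1.99% of all genes) against vehicle, and 0 directly. With the olfactory covariate 6 of the 24 were called higher directly (2.04% of all genes). The list's direct median was 0.11, with 0.24 in females and -0.02 in males. Acat2, which forms acetoacetyl-CoA, had 1299 ± 136 (SD, n = 9) under lithium and 1099 ± 66.6 (SD, n = 10) under fluoxetine, a difference of 0.24 ± 0.06, adjusted p = 0.077. Against vehicle it had 0.03 ± 0.06 under lithium and -0.21 ± 0.06 under fluoxetine. Clock genes had 0 of 20 called; Per2, a core repressor of the clock, rose by 0.58 ± 0.09 under lithium and 0.29 ± 0.09 under fluoxetine, with a direct difference of 0.29 ± 0.09, adjusted p = 0.156.

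**Figure D4:**
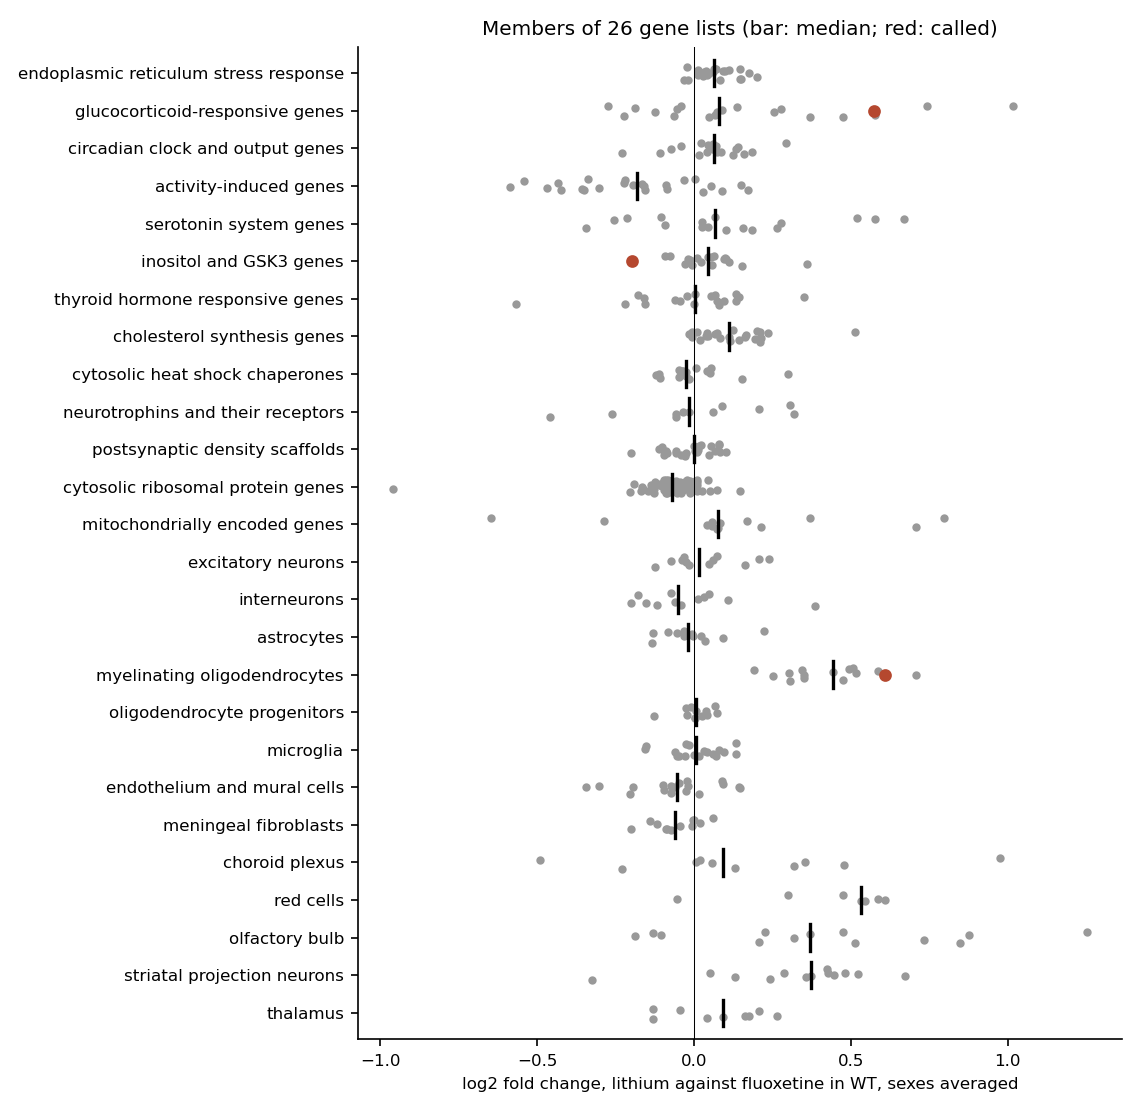
Log2 fold change of lithium over fluoxetine in WT mice, sexes averaged, for the tested members of 26 gene lists; each point is a gene, red points passed the test and black bars are list medians. Red points are Zbtb16, Ctnnb1 and Tspan2; the myelinating oligodendrocyte markers all lie above 0.

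Of the 80 cytosolic ribosomal protein genes, paralogs included, 0 were called directly. The median was -0.07, with -0.19 in females and 0.06 in males, and 19 were called lower under lithium (4.65% of all genes) and 1 under fluoxetine (1.99% of all genes) against vehicle. The 26 postsynaptic density scaffolds had 0 called and a median of 0.00175; 8 were called higher under lithium (7.05% of all genes) and 6 under fluoxetine (3.19% of all genes) against vehicle. Thyroid hormone responsive genes, cytosolic heat shock chaperones, neurotrophins and their receptors and the 13 mitochondrially encoded genes had 0 called each, with medians from -0.03 to 0.08. Markers of excitatory neurons, interneurons, astrocytes, oligodendrocyte progenitors, microglia, endothelium, meninges, choroid plexus and thalamus had 0 called each as well. Their medians lay between -0.06 and 0.09. With the olfactory covariate 1 of 12 interneuron markers was called higher (2.04% of all genes) and 2 lower (1.15% of all genes). Of 18 markers of endothelium and mural cells 1 was called lower, and the other lists of these cell types had 0 called. Olfactory bulb markers had 0 of 13 called and medians of -0.51 in females and 1.25 in males.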

How the data were processed

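Stranded poly(A) RNA libraries were sequenced, per the labels' protocols. The authors deposited 1 table whose values are a signal: the count of each gene over a factor that scales its library. The submitters' processing notes name Salmon 0.11.2, R 3.6.0, DESeq2 1.19.11 and GRCm38. Such scaling hides any change in the total RNA of a cell.

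Of 59 columns, 3 match no sample and were not used, and 1 of 57 labelled samples has no matching column. Multiples of the smallest value gave back whole reads in every column used (100% of values, tolerance 1e-06). No 2 WT libraries of a drug group agreed within sampling noise (36 pairs, smallest chi-square per degree of freedom 10.1). Symbols matched 18077 of 18088 genes. Coordinates come from GENCODE's annotation of GRCm38.

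The scale of analysis was log2(value + 1), which understates changes of low genes. A gene was tested if 3 or more libraries reached a value of 10 (18026 genes). The limma-trend fit held all 12 groups of genotype, drug and sex (44 residual degrees of freedom; limma 3.58.1 under R 4.3.3), and contrasts of group means were tested two-sided with Benjamini-Hochberg adjustment over 18026 genes. Intervals are at the 95% level. The fit was tested on simulated data. edgeR 4.0.16 on the recovered reads was an alternative, as were TMM factors, no filter, a pseudocount of 5, the compared groups only, a replicate block, the olfactory level as a covariate, leaving out the 14 libraries of highest olfactory level, a GC and length correction (splines with 4 degrees of freedom) and leaving out each library.

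The members, gene lists and alternatives were chosen with earlier results of these data known. Genes named were the 12 largest rises and 12 largest falls called with and without the olfactory covariate, with a mean of at least 50 and 1 direction in both sexes; the 5 largest of each among all called; up to 4 called members of each list, or else 2 by smallest p; up to 5 called genes within a sex or for a difference; and Shank3 and drug targets. Predicted genes were left out of the rule, and the text gives part of what it names. No list member met the rule for printing a promoter.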

Additional observations from a re-analysis of the deposited data

Results flagged for a closer look

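In 92 groups of 4 or 5 libraries, over 23 of the named genes, 8 groups held 1 library far from the others of its group by Dixon's criterion; chance gives about 1 in 20 groups. Strip2 had 2338 normalised counts in WT lithium male 4, where the other 4 had 1370 to 1540.1. Lrfn2 had 964 in WT lithium male 5, where the others had 631 to 722, and 464 in WT fluoxetine male 3, where the others had 582 to 603. Mertk had 1238 in WT lithium female 1, where the others had 1536 to 1565, and 1440.1 in WT fluoxetine male 4, where the others had 1225 to 1265. Tmem91 had 234 in WT lithium female 3, where the others had 279.7 to 282. Frat2 had 267 in WT fluoxetine female 4, where the others had 178 to 202, and Zfp438 had 142 in WT fluoxetine female 1, where the others had 101.4 to 111.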

How the results depend on the processing

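For lithium against fluoxetine in WT mice, 42 genes, the count was 1 with the compared groups only, 574 with the olfactory covariate, 121 without the 14 most olfactory libraries, 74 with the GC and length correction and 862 with both the correction and the covariate, and 8 to 87 when 1 library was left out. In females, 26 genes, these gave 0, 539, 1, 24 and 488, with 3 to 881 without 1 library. The 14 libraries left out held 3 of the 5 fluoxetine females. In males, 0 genes, the count was 5 with the covariate, 2 without the 14 libraries, 2 with the correction and 24 with both, and 0 to 2 without 1 library. The sex difference, 0 genes, ran from 0 to 253 without 1 library. In HT mice, 100 genes, the counts were 40 with the compared groups only, 483 with the covariate, 811 without the 14 libraries, 37 with the correction and 232 with both, and 36 to 208 without 1 library. The genotype difference, 0 genes, was called for 96 with the covariate, 519 without the 14 libraries and 2 with both, and for 0 to 9 without 1 library. Lithium against vehicle, 2109 genes, had 2356 with the compared groups only, 3365 with the covariate and 1561 to 2263 without 1 library. Fluoxetine against vehicle, 933 genes, had 421 with the compared groups only, 3052 with the covariate, 1734 without the 14 libraries, 473 with the correction and 2590 with both. Without 1 library it had 462 to 1295, with 462 and 570 without WT fluoxetine female 2 or WT vehicle female 3. The compared groups only take the spread from fewer libraries and not from the other groups, and the cause of these changes in count was not tested. Between 2 libraries of a group, chi-square per degree of freedom reached 86.8 in WT fluoxetine females and 27.7 in WT lithium females. In males it reached 24.7 under fluoxetine and 25.2 under lithium. TMM factors, no filter, a pseudocount of 5 and edgeR left every count within 1.5 times.

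Deviations of same-numbered libraries of the 2 drugs had correlations of -0.33 to 0.38, and the main fit did not pair libraries by replicate number. Such correlations cannot show whether the numbers mark a litter or a batch. With the replicate block, lithium against fluoxetine in WT mice had 40 calls, 38 of them among the 42, and the female contrast 42.

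Signs turned for 4 genes that were not called. Pcdh20 had 0.020 without the 14 libraries. Shank3 had -0.16 without the 14 libraries, and -0.00913 to 0.11 without 1 library (below 0 without WT fluoxetine female 1 or 4). Gsk3a had 0.016 with the covariate, 0.018 with the correction and 0.046 with both, and -0.045 to 0.029 without 1 library. Inpp1 had -0.00531 with the correction and -0.00521 with both. Of the values recomputed for single genes and lists, 3012 kept their sign and side of the threshold or stayed within the spread, 384 lost the call, 36 gained it and 63 moved.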
